A study of Mus musculus with 4 samples.

Results

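The stress keratin genes Krt6a, Krt6b, Krt16 and Krt17 were followed in skin of mouse embryos whose epidermis overexpresses Ovol2. They were found by symbol in the platform annotation, and all 4 of the 4 had a probe set that names no other gene, among 19938 genes with such a probe set. Each is represented by 1 probe set, so no choice between probe sets had to be made for them. RNA of whole skin at E17.5 (embryonic day) was hybridised to 4 Affymetrix whole-transcript arrays, each with RNA of 2 mice. The 2 Ovol2 BT arrays hold skin of mice that carry the transgene TRE-Ovol2-Flag, a tagged Ovol2 under a tetracycline-responsive promoter, together with K5-tTA, in which a keratin 5 promoter, active mainly in basal keratinocytes, drives the tetracycline transactivator. The 2 control arrays hold skin of mice with TRE-Ovol2-Flag and no driver, or of wild type mice, and no control with the driver and no Ovol2 transgene was analysed here. All mice are labelled female and described as littermates, yet the strain is given as FVB/N for Ovol2 BT and CB6F1 for the controls, so by the labels an effect of genotype and one of strain cannot be told apart. Skin was taken whole, so fewer cells of a type and less RNA per cell cannot be told apart in any value below. The labels call the arrays biological replicates, and p-values measure only the spread between these pools.

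Keratins are the intermediate filament proteins of epithelia and assemble as pairs of a type I and a type II protein. In mouse, the type II genes Krt6a and Krt6b and the type I genes Krt16 and Krt17 are low or absent in resting interfollicular epidermis, but are present in parts of the hair follicle and other appendages. They are switched on in keratinocytes after wounding and in hyperproliferative or inflamed skin, which gave them the name stress keratins. Krt17 is also made during normal skin development, in the periderm and in hair placodes.

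Ovol2, a zinc finger transcription factor of epithelia, had an intensity of 4367 and 3893 in the Ovol2 BT arrays, against 360 and 161 in the controls. This is a log2 difference of 4.0 (SE 0.33, limma adjusted p = 0.00311, 2 arrays per group), in the direction of the labels. Whether these are transgene or endogenous transcripts was not analysed here. The 4 arrays had median intensities between 123 and 132, and 9.44% to 10.1% of the values on each lay below 16. Intensities are linear values as deposited, and differences are of log2(intensity + 16), Ovol2 BT minus control, with p-values from limma adjusted over all 14953 tested genes. This scale understates changes of dim genes. An adjusted p under 0.05 is written below as a call, made for 0.963% of all tested genes, and an unadjusted p under 0.05 was reached by 5.11% with higher and 5.24% with lower values. Precision is limited by having 4 arrays.

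Krt6b and Krt16 rose in Ovol2 BT skin, Krt6a had higher values that did not pass the test, and Krt17 differed little. The 2 called genes were both higher, where 0.963% of all tested genes were called in either direction and 0.615% were called higher. For 3 of the 4 genes every Ovol2 BT array lay above every control array, as it did for 20.4% of all tested genes. The median difference of the 4 genes was 1.72, against -0.04 over all tested genes.

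Krt6b, a type II keratin, had intensities of 3138 and 1993 in Ovol2 BT, against 267 and 111 in the controls. The groups lay far apart, with the lower Ovol2 BT array at 7.47 times the higher control array. The rise was 3.73 on the log2 scale (SE 0.37, 95% interval 2.89 to 4.57, 13.3-fold, limma adjusted p = 0.00460).

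Krt6a, the neighbouring gene and the closest relative of Krt6b, had intensities of 1331 and 432 in Ovol2 BT, against 266 and 175 in the controls. Both Ovol2 BT arrays lay above both controls, but they differed 3.08-fold from each other, and the lower one was 1.62 times the higher control. The difference was 1.74 (SE 0.45, 95% interval 0.73 to 2.76, limma adjusted p = 0.172), which did not pass the test at an unadjusted p of 0.00369. The value hung on Ovol2 BT replicate 1: without it the difference was 0.95 (adjusted p = 0.203), and without Ovol2 BT replicate 2 it was 2.54 (adjusted p = 0.000987). Krt6a was also called with either control left out, at 2.03 without control replicate 1 and 1.46 without control replicate 2, in fits whose variance was the same for all genes of a given level. Krt6a and Krt6b are close copies, and how far the probes of one also bind transcripts of the other was not tested. From the first to the second array of a group, Krt6a differed 3.08-fold in Ovol2 BT and 1.52-fold in the controls, and Krt6b differed 1.57-fold in Ovol2 BT and 2.40-fold in the controls.

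Krt16, a type I keratin that pairs with the Krt6 proteins, had intensities of 724 and 685 in Ovol2 BT, against 222 and 195 in the controls. Within each group the arrays were close, and the lower Ovol2 BT array was 3.09 times the higher control. Krt16 rose by 1.69 on the log2 scale (SE 0.21, 95% interval 1.22 to 2.16, 3.22-fold, limma adjusted p = 0.00760). This was a smaller change than that of Krt6b, with a smaller error.

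Krt17, the type I gene next to Krt16, had intensities of 5209 and 4577 in Ovol2 BT, against 4623 and 4068 in the controls. The groups overlapped, since Ovol2 BT replicate 2 lay just below control replicate 1. The difference was 0.17 (SE 0.16, limma adjusted p = 0.729), and its 95% interval of -0.20 to 0.54 spans 0.872-fold to 1.45-fold. A log2 change of Krt17 as large as the 1.69 of Krt16 lies outside that interval, while a rise of up to 1.45-fold lies within it. In intensity units the group means were 4893 in Ovol2 BT and 4346 in the controls for Krt17, and 704 and 208 for Krt16. A gain of Krt17 by as many units as Krt16 gained lies within the interval. Whether a unit stands for the same amount of transcript in both probe sets was not tested.

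**Figure D1:**
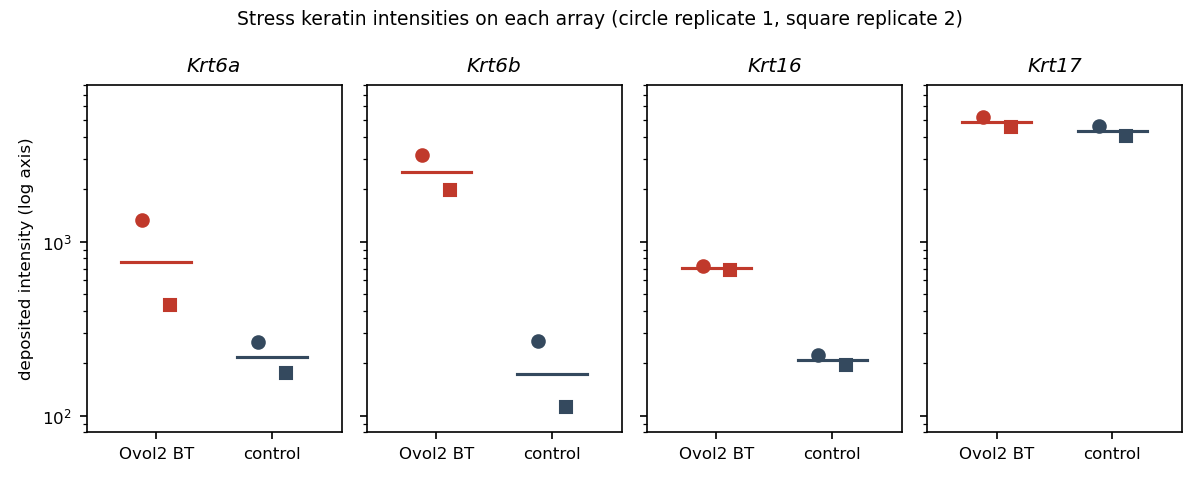
Deposited intensity (log axis) of each stress keratin on the 2 Ovol2 BT arrays (left, red) and the 2 control arrays (right, dark blue), with circles for replicate 1, squares for replicate 2 and a bar at the group mean of log2(intensity + 16). Krt6b and Krt16 separate the groups, the 2 Ovol2 BT arrays of Krt6a stand 3.08-fold apart, and Krt17 overlaps.

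The responses of the genes were compared pair by pair through the difference of their log2 values within each array, which leaves the level of each probe set out of account. With 2 arrays against 2, an exact two-sided permutation test cannot give a p below 0.333, so none of the 6 pairs could pass a threshold. Krt6b minus Krt6a was 1.23 and 2.17 in Ovol2 BT, against 0.00 and -0.58 in the controls, so the response of Krt6b exceeded that of Krt6a by 1.99 (pooled SD 0.55, exact p = 0.333, 0.400 adjusted over the 6 pairs). Both Ovol2 BT arrays show that direction. Krt6b minus Krt16 was 2.09 and 1.52 in Ovol2 BT, against 0.25 and -0.73 in the controls, an excess of 2.04 (pooled SD 0.57, exact p = 0.333). Krt16 minus Krt17 was -2.82 and -2.71 in Ovol2 BT, against -4.29 and -4.28 in the controls. Its excess of 1.52 had the smallest spread of the 6 pairs (pooled SD 0.05, exact p = 0.333). Krt6b minus Krt17 changed by 3.56 and Krt6a minus Krt17 by 1.57, again with groups that did not overlap (pooled SD 0.54 and 0.73, exact p = 0.333 for each). Krt6a and Krt16 was the 1 pair whose groups overlapped. It was at 0.87 and -0.65 in Ovol2 BT, against 0.25 and -0.14 in the controls, a change of 0.06 with a pooled SD of 0.78 (exact p = 1), too wide to show that their responses are alike. Its sign turned without Ovol2 BT replicate 1 (-0.70) and without control replicate 2 (-0.14). Krt6a minus Krt17 changed by 0.87 without Ovol2 BT replicate 1.

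**Figure D2:**
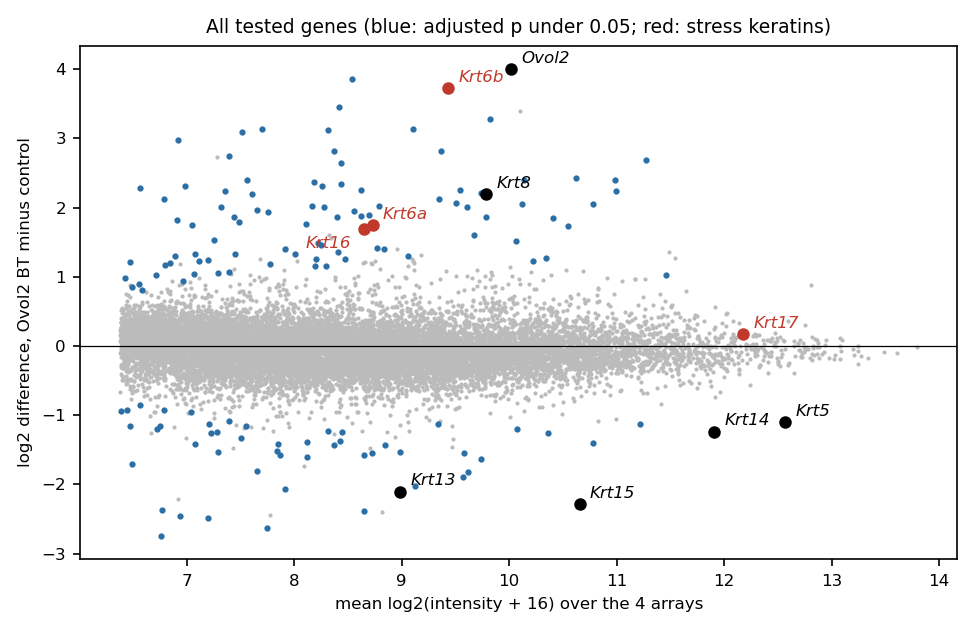
Each point is 1 of 14953 tested genes, at its mean log2(intensity + 16) over the 4 arrays (horizontal) and its log2 difference, Ovol2 BT minus control (vertical), blue where the limma adjusted p is under 0.05, with the stress keratins in red and other named genes in black. Krt6b lies near Ovol2 at the top, Krt16 and Krt6a lie together near 1.7, and Krt17 lies near 0 among the bright genes.

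Of the 48 other keratin genes, 38 were tested, and 5 of these were called, 1 higher and 4 lower. Background shares are 0.615% called higher and 0.348% called lower over all genes. Their median difference was -0.15, against -0.04 for all genes, and 16 had higher and 22 lower values, where all genes gave 6643 and 8310. With arrays centred on genes of the keratin network, an alternative chosen after seeing the data, the same amount is added to the difference of every gene. The median of all genes was then 0.35 and that of the other keratins 0.24, so a sign under this centring is read against 0.35.

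The 4 keratins called lower were those of the basal layer and a mucosal keratin. The basal type II gene Krt5 had intensities of 4478 and 3790 in Ovol2 BT, against 9485 and 8288 in the controls (log2 difference -1.10, SE 0.16, limma adjusted p = 0.0148). Krt14, its type I partner in basal cells, had 2832 and 2170 in Ovol2 BT, against 6529 and 5261 in the controls (-1.24, SE 0.20, adjusted p = 0.0226). Both lay in each Ovol2 BT array below each control. Krt15, a keratin of basal and follicle stem cells, fell by 2.29 (SE 0.20, adjusted p = 0.00311). Krt13, a keratin of mucosal epithelia, had 257 and 203 in Ovol2 BT, against 1618 and 659 in the controls (-2.10, SE 0.37, adjusted p = 0.0376). The calls of Krt5, Krt14 and Krt13 ended without a variance trend (adjusted p = 0.0526, 0.0524 and 0.0551) and with centring on the keratin network (-0.71, -0.85 and -1.72, adjusted p = 0.0813, 0.0743 and 0.115). Relative to the median of all genes these 3 stood at -1.06, -1.20 and -2.06 under both scalings. That of Krt13 also ended under quantile normalization (adjusted p = 0.0661).

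The keratin called higher was Krt8, a type II keratin of simple epithelia and of the periderm. It had 2181 and 1597 in Ovol2 BT, against 448 and 351 in the controls, a rise of 2.19 (SE 0.24, 4.56-fold, limma adjusted p = 0.00499). Its usual type I partner Krt18 was at -0.22 (SE 0.32, adjusted p = 0.820), with 237 and 119 in Ovol2 BT and 253 and 157 in the controls, and its sign turned on leaving out Ovol2 BT replicate 2 (0.23) or control replicate 1 (0.09). Krt18, and Krt42 below, were named after their values were seen. The suprabasal pair Krt1 (-0.17, adjusted p = 0.692) and Krt10 (-0.13, adjusted p = 0.754) was not called. Relative to the median of all genes Krt1 stood at -0.13 and Krt10 at -0.09, with and without centring on the keratin network, where their own values were 0.22 and 0.26.

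The genes sit near the basal keratins in the mouse keratin clusters, in the gene order of the GRCm38.p6 reference table, which was used for order alone. On chromosome 15 the order of the keratin genes runs Krt75, Krt6b, Krt6a, Krt5. The companion layer keratin gene Krt75 had 105 and 99.9 in Ovol2 BT, against 175 and 342 in the controls (-1.14, SE 0.28, limma adjusted p = 0.144). Without control replicate 2 its difference was -0.69 (adjusted p = 0.386), and without control replicate 1 it was -1.60 and called. Krt6b, which rose, and Krt5, which fell, thus lie on either side of Krt6a. On chromosome 11 it runs Krt14, Krt16, Krt17, Krt42, with differences of -1.24, 1.69, 0.17 and -0.07 (adjusted p = 0.915 for Krt42, a type I keratin gene that stood at -0.03 relative to the median of all genes). A gene that rose, Krt16, and a gene that fell, Krt14, were direct neighbours there.

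**Figure D3:**
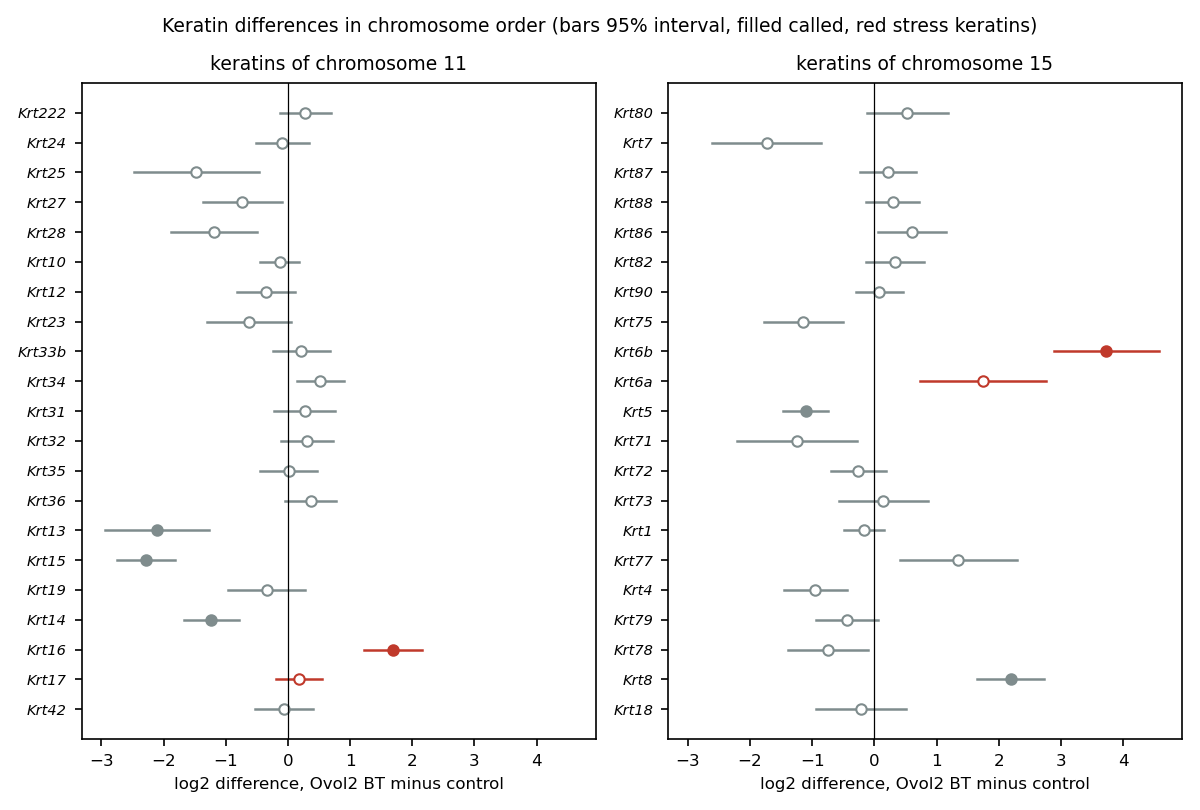
Log2 difference, Ovol2 BT minus control, with its 95% interval for every tested keratin gene, in chromosome order from top to bottom, with filled circles for an adjusted p under 0.05 and red for the stress keratins. Krt6b (3.73) and Krt16 (1.69) stand beside or near Krt5 (-1.10) and Krt14 (-1.24), and of the 38 other keratins 14 lie within 0.3 of 0 and 18 beyond 0.5.

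Genes known to act with the stress keratins in wounded or inflamed epidermis were taken from 8 lists. Of 92 tested genes, none of them a stress keratin, limma called 1, higher, a share near the 0.963% of all tested genes. At an unadjusted p under 0.05, 8 were higher and 18 lower, where all genes gave 5.11% and 5.24%, and their median difference was -0.10 against -0.04 over all genes. The called gene was the late cornified envelope gene Lce3c, with 788 and 908 in Ovol2 BT, against 172 and 156 in the controls (2.26, SE 0.21, limma adjusted p = 0.00346). It was the 1 call among 15 tested genes of the small proline-rich and Lce3 list (median 0.42). In this list 10 genes had higher and 5 lower values, and 4 higher and 3 lower had an unadjusted p under 0.05. Every tested Sprr2 gene of the list had a higher value, from 0.35 to 0.89, and none of them was called. In the same list Sprr1a, an envelope precursor that is raised in wounded epidermis, had 1352 and 1124 in Ovol2 BT, against 3458 and 2006 in the controls (-1.09, limma adjusted p = 0.144). Leaving out control replicate 2 gave a call (-1.48), and leaving out control replicate 1 gave -0.70 (adjusted p = 0.371). Sprr3 was at -1.26 (adjusted p = 0.168, called at -1.84 without control replicate 2 and at -1.46 without Ovol2 BT replicate 1, and at -0.69 with adjusted p = 0.0761 without control replicate 1).

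None of the 18 tested alarmin, cytokine and antimicrobial genes of activated keratinocytes was called by limma, with 1 higher and 3 lower at an unadjusted p under 0.05. Their median was 0.09. Il1f6, which encodes an epidermal interleukin 1 family cytokine, had 317 and 354 in Ovol2 BT, against 1222 and 527 in the controls (-1.22, limma adjusted p = 0.239). Leaving out control replicate 2 gave a call (-1.82), and leaving out control replicate 1 gave -0.63 (adjusted p = 0.523). Il1a, the alarmin stored in keratinocytes, was at -0.67 (adjusted p = 0.382, and -0.40 to -0.93 with 1 array left out), and the antimicrobial gene Lcn2 at 0.64 (adjusted p = 0.463, and 0.27 to 1.01). The 3 genes of the list with the smallest p, Il1f6, Il1a and the related cytokine gene Il1f9 (-0.65, adjusted p = 0.433, and -0.30 to -1.01 with 1 array left out), had lower values in Ovol2 BT.

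The next 3 lists hold upstream regulators of the stress keratins, and the third of them mostly targets of such a regulator. They gave 0 calls among a small number of genes, where 0.963% of all tested genes were called. For the EGF receptor family and its ligands, which induce Krt6 and Krt16 in cultured human keratinocytes, limma called 0 of 8 genes, where an unadjusted p under 0.05 would give 0 higher and 2 lower (median -0.29). The ligand gene Btc had 151 and 151 in Ovol2 BT, against 423 and 283 in the controls (-1.12, SE 0.23, adjusted p = 0.0777). Btc was called with the lower 50% of genes left out (adjusted p = 0.0321) and, at -1.40, without control replicate 2. Of 13 genes for AP-1, NF-kB and STAT3 factors limma called 0, and 0 higher and 1 lower had an unadjusted p under 0.05 (median 0.05), among them Fos at -0.61 (adjusted p = 0.477, and -0.26 to -0.97 with 1 array left out). Of 11 genes for Nrf2, a regulator of the oxidative stress response, and its targets limma called 0, and 3 higher and 2 lower had an unadjusted p under 0.05 (median -0.08). The cystine transporter gene Slc7a11 had 278 and 240 in Ovol2 BT, against 172 and 81.6 in the controls (1.02, adjusted p = 0.241). It was called at 1.49 without control replicate 1, and was at 0.55 without control replicate 2 (adjusted p = 1).

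All 7 tested genes of the hedgehog pathway, whose Gli factors act on Krt17, had lower values (median -0.61), as did 8310 of all 14953 tested genes. Limma called 0 of the 7, with 4 lower and 0 higher at an unadjusted p under 0.05, where all genes gave 5.24% and 5.11%. The target gene Gli1 had 500 and 309 in Ovol2 BT, against 731 and 780 in the controls (-0.91, SE 0.26, adjusted p = 0.233). Leaving out Ovol2 BT replicate 1 gave a call (-1.24), and leaving out Ovol2 BT replicate 2 gave -0.58 (adjusted p = 0.308). The ligand gene Shh was at -0.72 (adjusted p = 0.241) and the receptor gene Ptch1 at -0.61 (adjusted p = 0.286). Krt17 stayed at 0.17 in the same arrays. Of 9 wound edge and migration genes limma called 0, and 0 higher and 2 lower had an unadjusted p under 0.05 (median -0.12), with the hyaluronan receptor gene Cd44 at -0.71 and the laminin chain gene Lama3 at -0.69 (adjusted p = 0.233 and 0.270). Of 11 keratin network partners, which anchor or bind keratin filaments, limma called 0, and 0 higher and 1 lower had an unadjusted p under 0.05 (median -0.17). The plakophilin gene Pkp1 was at -0.53 (adjusted p = 0.385) and Sfn, which encodes a protein that binds keratin 17, at -0.44 (adjusted p = 0.492, and -0.25 to -0.63 with 1 array left out).

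In 3 lists of markers of the epithelia of embryonic skin, of which some make stress keratins, most tested genes had lower values. The calls went in both directions. Of 9 tested periderm genes 7 had lower values (median -0.35). Limma called 2 of the 9 higher and 1 lower, where all tested genes gave 0.615% and 0.348%. The called rises were Krt8 and the claudin gene Cldn6, which had 615 and 515 in Ovol2 BT, against 124 and 128 in the controls (2.03, SE 0.21, limma adjusted p = 0.00471), and the called fall was Krt13. Krt7 had 191 and 91.7 in Ovol2 BT, against 695 and 329 in the controls (-1.73, adjusted p = 0.103), and was called without any 1 of control replicate 1 (-1.21), control replicate 2 (-2.25) and Ovol2 BT replicate 1 (-2.20). The summed intensity of the periderm list was 5823 and 4767 in Ovol2 BT, against 6394 and 4299 in the controls, so the groups overlapped. Of 8 outer root sheath and companion layer genes 7 had lower values and 1 was called, Lhx2, a transcription factor of follicle progenitors, at -1.83 (SE 0.22, adjusted p = 0.00732, and -1.44 with adjusted p = 0.120 on centring on the keratin network). The summed intensity of that list was 9131 and 9161 in Ovol2 BT, against 11288 and 11426 in the controls. Cd34 was the largest part of these sums, at 4028 and 4920 in Ovol2 BT, against 4517 and 3721 in the controls. It was the 1 gene of the list with a higher value (0.12, limma adjusted p = 0.832). In the interfollicular epidermis list all 7 tested genes had lower values, as did 8310 of all 14953 tested genes. That list had 2 called genes, Krt5 and Krt14. The sums over its 8 genes with a probe set were 41784 and 37264 in Ovol2 BT, against 56516 and 48044 in the controls, and include the dim, untested Krt2 at 64.2 and 72.1 in Ovol2 BT, against 40.3 and 41.8 in the controls. No gene of these 3 lists was at 0 on any array, and their part in the stress keratin values was not tested.

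Within both groups all 4 stress keratins were higher in replicate 1 than in replicate 2, and so were some lists of epithelial genes. For Krt16 replicate 1 was 1.06 times replicate 2 in Ovol2 BT and 1.14 times in the controls. For Krt17 it was 1.14 times in each group. The mean log2 level of the keratin network partners was 10.69 in replicate 1 and 10.40 in replicate 2 of Ovol2 BT, against 10.88 and 10.65 in the controls. For the periderm list it was 8.78 and 8.36 in Ovol2 BT, against 9.04 and 8.49 in the controls. The interfollicular list had 12.25 and 12.07 in Ovol2 BT, against 12.75 and 12.57 in the controls. The outer root sheath and companion layer list had 9.50 and 9.36 in Ovol2 BT, against 10.00 and 10.21 in the controls, so its control arrays went the other way. The part of this in the spread of Krt6a was not tested.

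Among other cells, adipocyte genes stood out, with 9 of 10 called higher, against 0.615% of all tested genes, and a median difference of 2.37. Their summed intensity was 15230 and 14986 in Ovol2 BT, against 4326 and 2796 in the controls, with groups that did not overlap. Of 9 immune cell genes limma called 0, and 2 higher and 0 lower had an unadjusted p under 0.05. Over all tested genes these shares were 5.11% and 5.24%. The sums over the 12 immune cell genes with a probe set were 6223 and 6045 in Ovol2 BT, against 5016 and 5059 in the controls. Both Ovol2 BT sums thus lay above both control sums. Of the 9 tested genes 7 had higher and 2 lower values, where all genes gave 6643 and 8310. The mast cell protease gene Mcpt4 was at 0.85 (adjusted p = 0.265, called at 1.19 without control replicate 2, and 0.52 with adjusted p = 0.668 without control replicate 1), and the pan-leukocyte gene Ptprc at 0.25 (adjusted p = 0.640). Fibroblast genes were close between groups, with sums of 33437 and 34678 in Ovol2 BT, against 32274 and 34023 in the controls, and 0 of 7 called by limma (0 at an unadjusted p under 0.05). For the other tissues that whole skin can hold, the medians were 0.19 for endothelium, 0.22 for skeletal muscle, 0.35 for oral and nail epithelium (3 tested genes) and -0.71 for melanocytes. Of 5 melanocyte genes limma called 1 lower, and 3 were lower at an unadjusted p under 0.05. All tested genes gave 0.348% and 5.24%. Limma called 0 of 5 endothelium genes, 0 of 6 skeletal muscle genes and 0 of 3 oral and nail genes. None of these lists had a gene at 0 on the arrays, and their part in the stress keratin values was not tested.

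**Figure D4:**
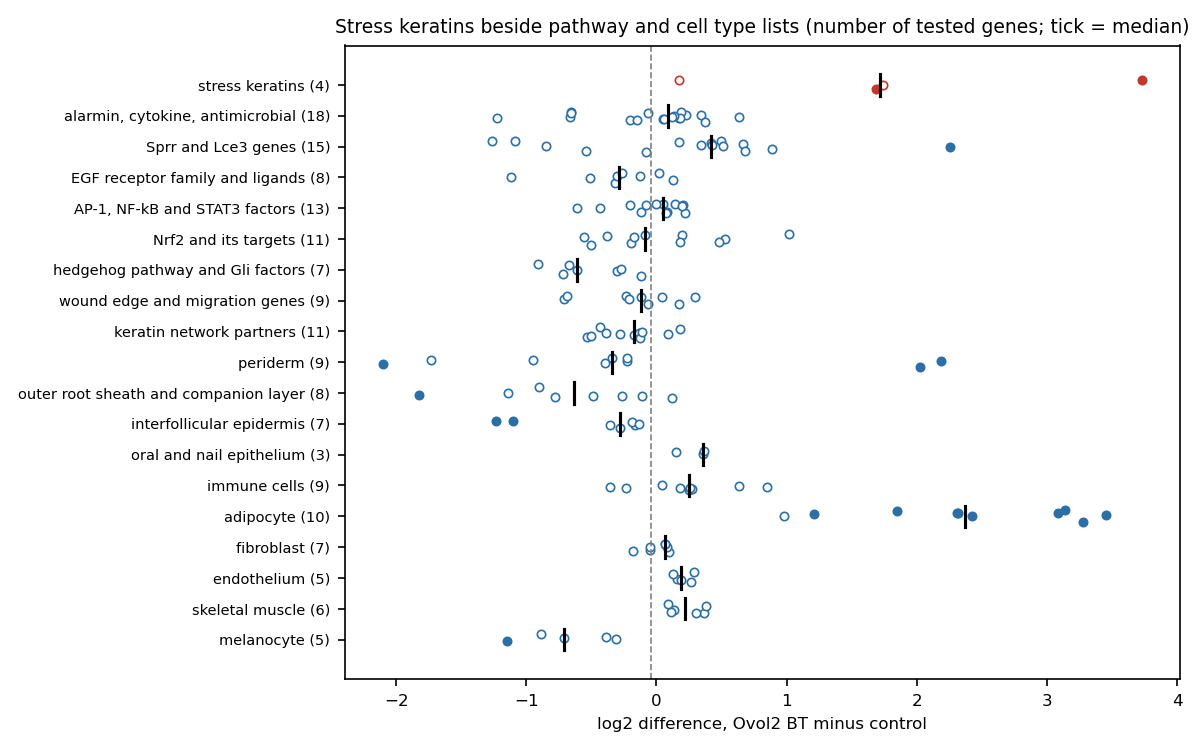
Log2 difference, Ovol2 BT minus control, of each tested gene (circle, filled where the limma adjusted p is under 0.05) in the stress keratins (red) and in the 8 pathway and 10 cell type lists (blue), with a tick at each median and a dashed line at the median of all genes (-0.04). The stress keratins have a median of 1.72, the adipocyte list 2.37, and the medians of the pathway lists lie between -0.61 and 0.42.

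The genes with the most similar profile were found by the Euclidean distance between log2 values, each centred on its own mean over the 4 arrays. The search left out the members, predicted models, clones and every symbol that opens with a capital letter and a digit, which drops some known genes. The gene nearest to Krt6b was Ovol2 itself, at a distance of 0.44. The amino acid transporter gene Slc36a2 (difference 3.86) lay at 0.59 and Thrsp, which regulates lipid synthesis, at 0.51. The nearest to Krt16 were the lipid droplet gene Plin1 (0.29), the lipid-sensing nuclear receptor gene Ppara (0.30) and the pyruvate dehydrogenase kinase gene Pdk4 (0.32), with differences of 1.85, 1.77 and 1.46. Plin1 and Thrsp belong to the adipocyte list above. The nearest to Krt6a were Mcrip2 (0.55), Coq8a, a gene of coenzyme Q synthesis (0.62), and Slc44a3 (0.73). These 3 were called, at 1.88, 2.22 and 1.86 (limma adjusted p = 0.0376, 0.0169 and 0.0190, that of Mcrip2 ending without a variance trend at 0.0527). The nearest to Krt17 were Syngr2, Clasrp and Mdh2 at 0.01, 0.02 and 0.02, none of them called. With 4 arrays in 2 groups, the distance is set mainly by the size of the group difference.

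The calls of Krt6b and Krt16 held in each of the 15 alternatives run, and that of Krt17 was absent in each. The difference ranged from 3.15 to 4.30 for Krt6b and from 1.5 to 2.07 for Krt16. For Krt17 it ranged from 0.08 to 0.56, the highest with centring on the keratin network (SE 0.13, limma adjusted p = 0.165), which raised the median of all genes to 0.35. Krt17 stood 0.21 above the median of all genes with and without the centring. Krt6a ranged from 0.95 to 2.54 and was called in 4 of the 15.

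**Figure D5:**
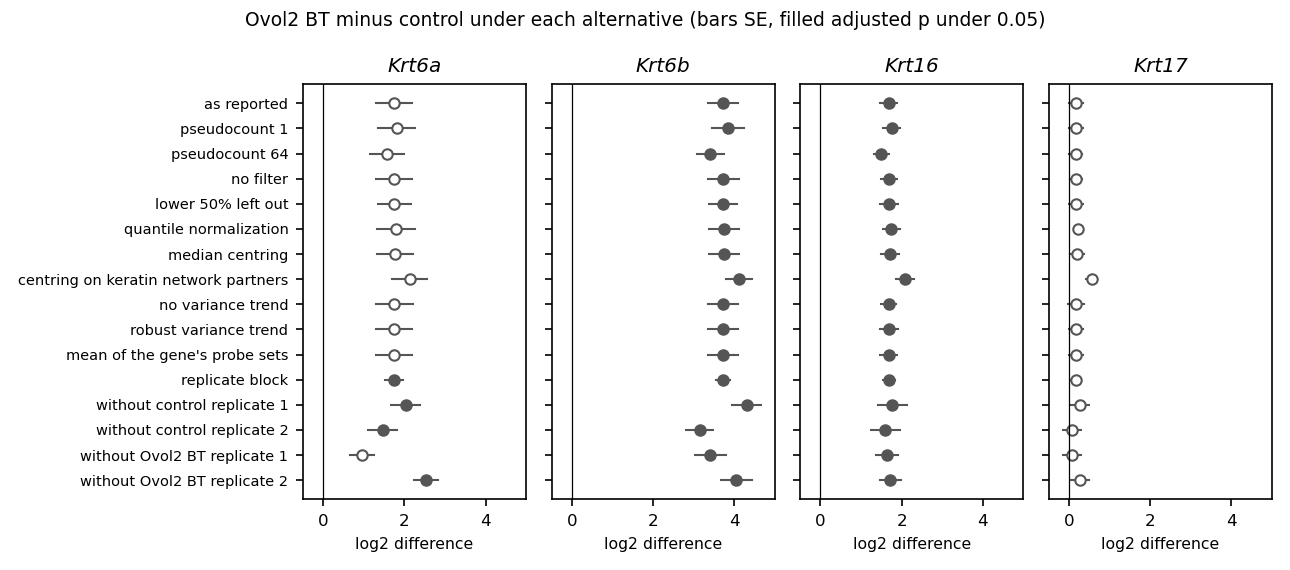
Log2 difference, Ovol2 BT minus control, with its SE for each stress keratin as reported (top row) and under each of 15 alternatives, filled where the limma adjusted p is under 0.05. Krt6b and Krt16 are filled in every row, Krt17 in none, and Krt6a in 4 alternatives, spanning 0.95 to 2.54.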

How the data were processed

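RNA of whole skin was measured on 4 arrays, grouped by the sample titles. The deposited intensity values, 1 per probe set, were summarised by the authors. The submitters' processing notes name Affymetrix Expression Console 1.1.1 and PLIER 2.0 for this. How background and differences between arrays were corrected, and on which genome build, is not given in the sources used here. The table holds 35557 probe sets. Of these, 21789 name 1 gene in the platform annotation, 1621 name several and 12147 are not named. For the 999 genes with several probe sets, the one with the highest mean was used.

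Values were tested as log2(intensity + 16) without further normalization. The 25% of genes with the lowest mean (4985) were left out. To the remaining 14953 genes a model with a group term was fitted in R 4.3.3 by lmFit and eBayes of limma 3.58.1, with a trend of the variance on the level, 2 residual degrees of freedom and a prior of 6.94. Tests were two-sided, and p-values were adjusted by Benjamini and Hochberg over all these genes. In 10 runs of simulated data with 200 changed genes, this fit called 31.4% of genes changed 2-fold and 97.6% changed 4-fold, with 5.25% of calls false, for noise drawn independently. Exact permutation tests used scipy 1.17.1. The 3 nearest profiles per member were sought without the members, predicted models, clones and symbols that open with a capital letter and a digit. Named genes came from the members, Ovol2, called or basal and suprabasal keratins, the 4 smallest p of each list, and these nearest profiles. Of the 86 genes this gives beside the members, 42 are named, chosen with their values known. Krt18, Krt42, Krt2 and Cd34 lie outside this naming rule. The members and lists were chosen with earlier results of these data known. Of 15 alternatives, 14 changed the pseudocount, filter, normalization, variance model, probe set choice, replicate block or arrays. The other, chosen after seeing the data, centred each array on the median of the keratin network partners.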

Additional observations from a re-analysis of the deposited data

How the results depend on the processing

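The differences of Krt6b, Krt16 and Krt17 kept their direction and their side of the threshold in all 15 alternatives, and Krt6a kept its direction. Krt6a gained a call in 4: at 1.74 with the replicate number as a block (adjusted p = 0.000990), and with 1 array left out (0.95 to 2.54 over the 4 arrays, 3 of them called). The 6 differences between responses kept their direction under both other pseudocounts and quantile normalization, while centring cannot change them. With 1 array left out, tried after seeing the data, 5 kept theirs, and Krt6a minus Krt16 ranged from -0.70 to 0.81. Labels give no shared litter or day for a replicate number, deviations of same-numbered arrays correlated at 0.41, and the samples share only a number. With the block 671 genes were called (323 higher, 348 lower) against 144 (92 and 52), with 2 other keratins higher and 12 lower against 1 and 4, and 4 genes of the pathway lists higher and 13 lower against 1 and 0. With 1 array left out, a lone array is assumed to vary like the other group, and the counts were 206 to 366 called, 100 to 220 higher and 71 to 146 lower. Other keratins were then 1 to 3 higher and 4 to 10 lower, and pathway list genes 1 to 3 higher and 0 to 5 lower. Without a control array the prior degrees of freedom were infinite, which gives all genes of a level the same variance. With centring on the keratin network partners 92 genes were called, 88 higher and 4 lower (95.7% higher against 63.9%), 1 other keratin was lower, and the prior degrees of freedom fell to 4.40. Without a variance trend 1 other keratin was called lower, and with the lower 50% left out 1 pathway list gene was. Counts from different alternatives share genes in part: 73 of the 92 were among the 144. Over the 86 genes of the naming rule beside the members, with Krt18 and Krt42, 1226 of 1301 comparisons stayed on the same side in the same direction, 38 gained a call and 12 lost one. In the other 25 a value of a gene that was not called changed direction, 12 of them with centring, which adds the same amount to every gene. Among genes named above these were, with centring, Krt1 (0.22), Krt10 (0.26), Krt18 (0.17) and Krt42 (0.32), all below the median of all genes, 0.35, and under quantile normalization Krt42 (0.0064). With 1 array left out Krt18 ranged from -0.68 to 0.23 and Krt42 from -0.16 to 0.017. The cause of the changes other than those with centring was not tested. Without detection calls, the lower limit of detection is unknown.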
